A study of Homo sapiens with 4 samples.

Results

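The Hippo pathway genes examined here were NF2, the core kinases STK3, STK4, LATS1 and LATS2 with the scaffold SAV1, the NDR kinases STK38 and STK38L, and the effectors YAP1 and WWTR1. They were read through every probe set that the platform annotation assigns to exactly 1 of these 10 genes, which gave 43 of the 54675 probe sets on the array. The set was picked because NF2 was much lower and STK38L much higher in the comparison described below, so the values of all 10 genes are given as a description and without p-values. The cells were PC3, an established line of human prostate cancer that came from a metastasis in bone, grown here in RPMI with serum. They received 40 nM of a control siRNA or of one that targets COUP-TFII, a DNA-binding member of the nuclear receptor family, and RNA was taken at 48 h. Each of the 2 groups held 2 arrays, and both groups were transfected cells of the same line. The sequence of either siRNA, and whether replicates came from separate transfections, is not given in the sources used here, so the calls below rest on the spread among these arrays alone, and that spread may be technical.

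In the Hippo pathway, the kinases MST2 and MST1 (genes STK3 and STK4) with SAV1 activate LATS1 and LATS2, which phosphorylate the coactivators YAP (YAP1) and TAZ (WWTR1) and keep them out of the nucleus. The membrane protein merlin, encoded by the tumour suppressor gene NF2, recruits and promotes this cascade. The NDR kinases NDR1 (STK38) and NDR2 (STK38L) are the closest relatives of the LATS kinases. They depend on the same MOB1 adaptors (MOB1A and MOB1B) and can also phosphorylate YAP. In the nucleus YAP and TAZ bind TEAD transcription factors, and VGLL proteins bind the same factors.

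Intensities are the deposited linear values per probe set. Array medians lay between 31.7 and 32.9, and a probe set whose mean over the 4 arrays was under 32 is called dim below. Differences are on the log2(intensity + 16) scale, COUP-TFII siRNA minus control siRNA, with the standard error (SE) of the limma fit. A feature is said to have passed, risen or fallen at an adjusted p under 0.05 over all features of its fit. The epithelial markers KRT8, KRT18, KRT19, EPCAM and CDH1 had group means from 2149 to 9819. The luminal prostate markers KLK3 and KLK2 were dim. Of 4 measured leukocyte markers 3 were dim, PTPRC included, and CD3E had a mean of 33.7. Their summed intensity was 81.1 and 77.8 in the control arrays and 103.8 and 81.5 after COUP-TFII siRNA. Of 5 endothelial markers 4 were dim, and PECAM1 read 170.8 and 171.0 against 244.1 and 193.0 without passing. No leukocyte or endothelial marker passed, and their part in the results was not tested. All 20 measured genes of a G2/M list fell, with a median of −1.38 (limma, Benjamini-Hochberg), and its summed intensity was 17453 and 16400 in the control arrays and 6165 and 6570 in the COUP-TFII siRNA arrays. The part of this shift in the results below was not tested. The 3′ probe set of a gene over its 5′ one is a measure of RNA integrity and labelling. For ACTB it was 1.52 and 1.83 in the control arrays and 1.42 and 1.46 in the COUP-TFII siRNA arrays. For GAPDH it was 0.957 and 0.986 in the control arrays and 0.994 and 0.986 in the COUP-TFII siRNA arrays. The part of these ratios in the results was not tested either. In bulk RNA, fewer cells of a kind and less RNA per cell cannot be told apart. The target's own transcript is not reported here, so the siRNA labels were not checked against it.

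The promoters of the 3 genes with the largest differences are shown because COUP-TFII is a DNA-binding factor whose family recognises repeats of the half-site AGGTCA. Each run is the 250 bases before an annotated start, on the gene's strand, from RefSeq on GRCh38.p14. Capitals mark matches on either strand to AGGTCA or to the TEAD motif GGAATG. For NF2 the outermost of 2 annotated starts is shown, and for WWTR1 the one of 2 starts whose window held a match.
NF2 chr22:29603306-29603555 (+ strand): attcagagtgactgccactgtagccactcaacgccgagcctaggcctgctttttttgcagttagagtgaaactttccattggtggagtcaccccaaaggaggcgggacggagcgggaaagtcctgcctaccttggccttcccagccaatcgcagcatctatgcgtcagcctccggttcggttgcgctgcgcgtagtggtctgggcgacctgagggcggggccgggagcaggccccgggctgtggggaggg
STK38L chr12:27244036-27244285 (+ strand): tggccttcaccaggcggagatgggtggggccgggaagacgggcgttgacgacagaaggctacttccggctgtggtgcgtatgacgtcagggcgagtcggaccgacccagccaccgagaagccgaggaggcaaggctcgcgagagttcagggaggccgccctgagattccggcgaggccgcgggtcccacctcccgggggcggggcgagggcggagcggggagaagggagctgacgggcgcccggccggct
WWTR1 chr3:149658026-149658275 (- strand): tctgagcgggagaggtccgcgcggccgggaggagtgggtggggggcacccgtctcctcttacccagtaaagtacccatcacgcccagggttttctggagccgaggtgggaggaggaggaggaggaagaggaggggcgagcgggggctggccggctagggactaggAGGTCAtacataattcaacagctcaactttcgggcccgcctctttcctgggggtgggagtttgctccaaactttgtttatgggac
The table held 11 starts for 8 of the 10 genes. Of these 8 genes, WWTR1 had AGGTCA, at −85 to −80 from that start, and YAP1 had GGAATG, at −162 to −157. Over all 35114 windows of this length, 12.1% held AGGTCA and 11.9% held GGAATG. A match is a run of letters in this window and was not measured as a binding site.

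Across the 43 probe sets, 8 were lower and 6 higher at the threshold, and 29 did not pass. All 8 lower ones belonged to NF2 (5) and WWTR1 (3). The 6 higher ones belonged to STK38L (2), STK38 (2), LATS1 (1) and YAP1 (1). Over all 54613 probe sets tested, 12.2% passed, 6.51% as higher and 5.67% as lower, and nothing is read from the members' share because they were chosen in this contrast. Of the 43, 10 were dim and none of those passed. The groups did not overlap in 26 probe sets, 12 with higher and 14 with lower COUP-TFII siRNA arrays, beside 50.4% of all probe sets (26.3% higher, 24.1% lower). Of the 10 brightest probe sets, 1 per gene, 5 were higher and 2 lower without overlap, beside 57.5% of all genes (30.8% higher, 26.7% lower). The count rested on all 4 arrays. It was 6 (2 higher, 4 lower) without control replicate 1 or without control replicate 2, and 9 (3 higher, 6 lower) without either COUP-TFII siRNA array. The probe sets still called in all 4 of these fits were the brightest of NF2, both of STK38L and all 3 of WWTR1.

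**Figure D1:**
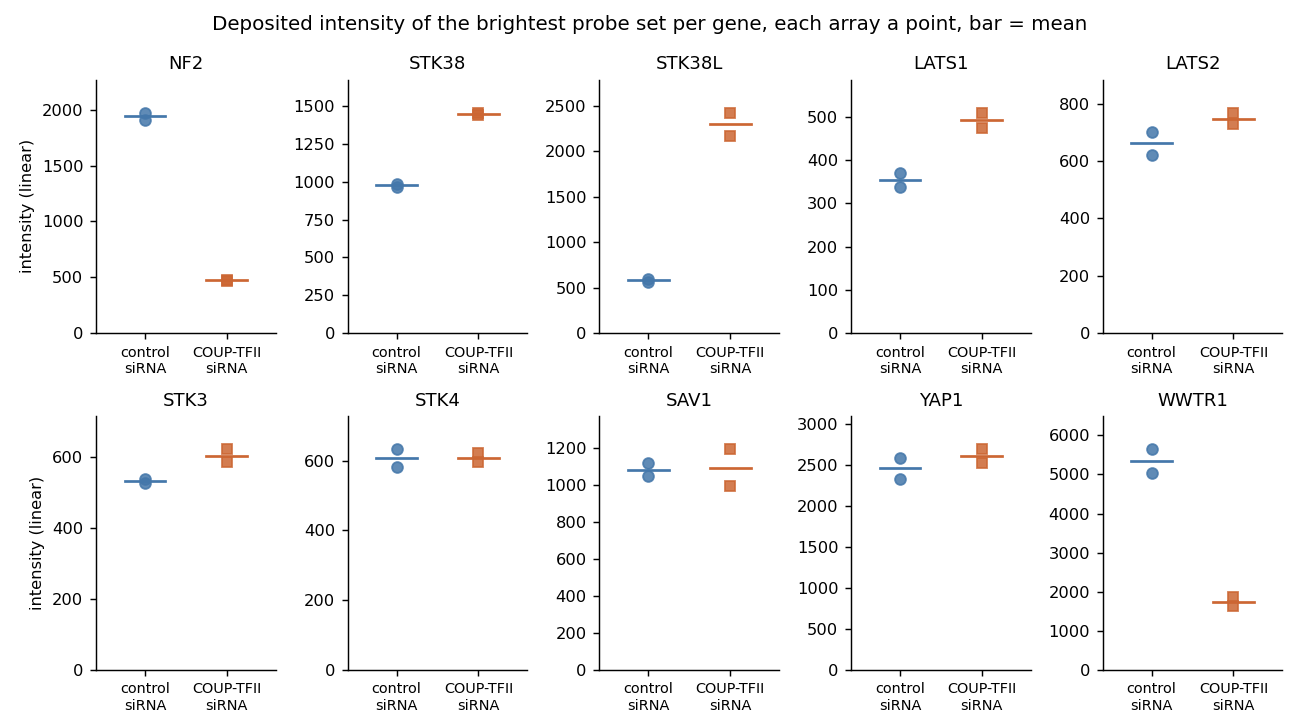
Deposited intensity (vertical axes, linear, from 0, scaled per gene) of the brightest probe set of each of the 10 genes in the 2 control siRNA arrays (circles) and the 2 COUP-TFII siRNA arrays (squares), with bars at the means. NF2 and WWTR1 sit far lower and STK38L far higher after COUP-TFII siRNA, while STK4, SAV1 and YAP1 overlap between the groups.

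NF2, which encodes merlin, was lower after COUP-TFII siRNA on all 8 of its probe sets, and 4.12 times lower on the brightest. That probe set, 218915_at, read 1906 and 1973 in the control arrays and 475.1 and 466.2 in the COUP-TFII siRNA arrays. Both COUP-TFII siRNA arrays lay below both controls, and replicates differed by at most 0.05 on the log2 scale. The group means were 1940 ± 47 and 470.6 ± 6.3 (SD, n = 2), a ratio of 0.243 and a log2 difference of −2.01 ± 0.06 (SE). In the fit of 1 probe set per gene this was the 19th largest fall of 19775 genes. The set was picked for this fall, so the rank is description only.

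The other 7 NF2 probe sets moved the same way by less. Probe set 217150_s_at read 360.2 and 388.0 in the controls and 198.6 and 214.0 after COUP-TFII siRNA, a log2 difference of −0.81 ± 0.09 (SE). Probe set 211091_s_at read 205.2 and 200.3 against 102.8 and 103.7, and 204991_s_at read 236.0 and 242.1 against 147.2 and 145.5. On both, the groups were apart by far more than the replicates, with log2 differences of −0.88 ± 0.11 and −0.65 ± 0.10. Probe set 211017_s_at, near 100 in the controls at 105.0 and 92.2, read 46.0 and 47.9 after COUP-TFII siRNA. Probe set 210767_at, at 127.1 and 150.0 against 103.7 and 94.8, did not pass although its groups did not overlap. The dimmest of the 8, 211092_s_at and 238618_at, had overlapping groups and differences of −0.23 ± 0.23 and −0.20 ± 0.26. So the sign was the same on all 8 probe sets, while the size ran from −2.01 to −0.20, with a median of −0.73. Averaging the 8 gave −0.76 ± 0.09 against −2.01 on the brightest one alone, and still passed. Of the 5 that passed, 217150_s_at and 211091_s_at did not pass without either control array, and 204991_s_at and 211017_s_at lost their call whichever array was omitted.

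WWTR1, which encodes TAZ, was 2.79 to 3.31 times lower after COUP-TFII siRNA on all 3 of its probe sets. The brightest, 202133_at, read 5640 and 5030 in the control arrays and 1866 and 1619 after COUP-TFII siRNA. Probe set 202132_at read 1142 and 1203 against 337.3 and 371.0. Probe set 202134_s_at read 395.3 and 385.9 against 142.9 and 137.6. On each of the 3 the COUP-TFII siRNA arrays lay below both controls without overlap. The log2 differences were −1.61 ± 0.08, −1.68 ± 0.07 and −1.38 ± 0.09 (SE), a narrower range than for NF2. With 1 array left out, the brightest probe set ranged from −1.71 to −1.51. Among 19775 genes WWTR1 had the 70th largest fall.

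YAP1, the paralog of WWTR1, did not share this fall. Its brightest probe set, 224894_at, read 2593 and 2336 in the controls and 2693 and 2527 after COUP-TFII siRNA, which overlap. The mean difference was 0.08 ± 0.06 (SE). Probe set 213342_at also overlapped, at 653.7 and 661.5 against 741.1 and 622.3. Probe set 224895_at was higher without overlap, at 1519 and 1420 against 1820 and 1873, and passed at 0.33 ± 0.06, although it lost its call whichever array was omitted. The log2 ratio of WWTR1 to YAP1 within each array, set to a mean of 0 in the controls, was 0.01 and −0.01 in the control arrays and −1.63 and −1.75 in the COUP-TFII siRNA arrays. This is a change in the ratio on these probe sets, not a ratio of transcript amounts.

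STK38L, which encodes NDR2, was 3.96 and 5.01 times its control level on its 2 probe sets. Its brightest probe set, 212572_at, read 595.4 and 564.7 in the control arrays and 2421 and 2171 after COUP-TFII siRNA. The second, 212565_at, read 124.7 and 120.8 against 673.6 and 555.5. Every COUP-TFII siRNA array exceeded every control on both probe sets. The log2 differences were 1.95 ± 0.07 and 2.18 ± 0.11 (SE). STK38L had the 12th largest rise of 19775 genes, and this rank too is description only, because the set was picked for this rise.

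STK38, which encodes the other NDR kinase, was also higher, by a smaller step. Probe set 202951_at read 988.9 and 967.2 in the controls and 1443 and 1457 in the COUP-TFII siRNA arrays. Probe set 1553117_a_at read 121.9 and 110.9 against 201.9 and 185.1. Both passed, with log2 differences of 0.56 ± 0.05 and 0.66 ± 0.11 (SE). The first did not pass without either control array, and the second lost its call whichever array was omitted. The remaining 3 STK38 probe sets were near or under 32 and did not pass, 1557145_at being higher (0.58 ± 0.25), 216451_at lower (−0.63 ± 0.25) and 216727_at overlapping. Averaged over its 5 probe sets STK38 differed by 0.22 ± 0.15 and did not pass. The log2 ratio of STK38L to STK38 within arrays was 1.48 and 1.31 in the COUP-TFII siRNA arrays, against 0.02 and −0.02 in the controls, on the brightest probe sets.

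**Figure D2:**
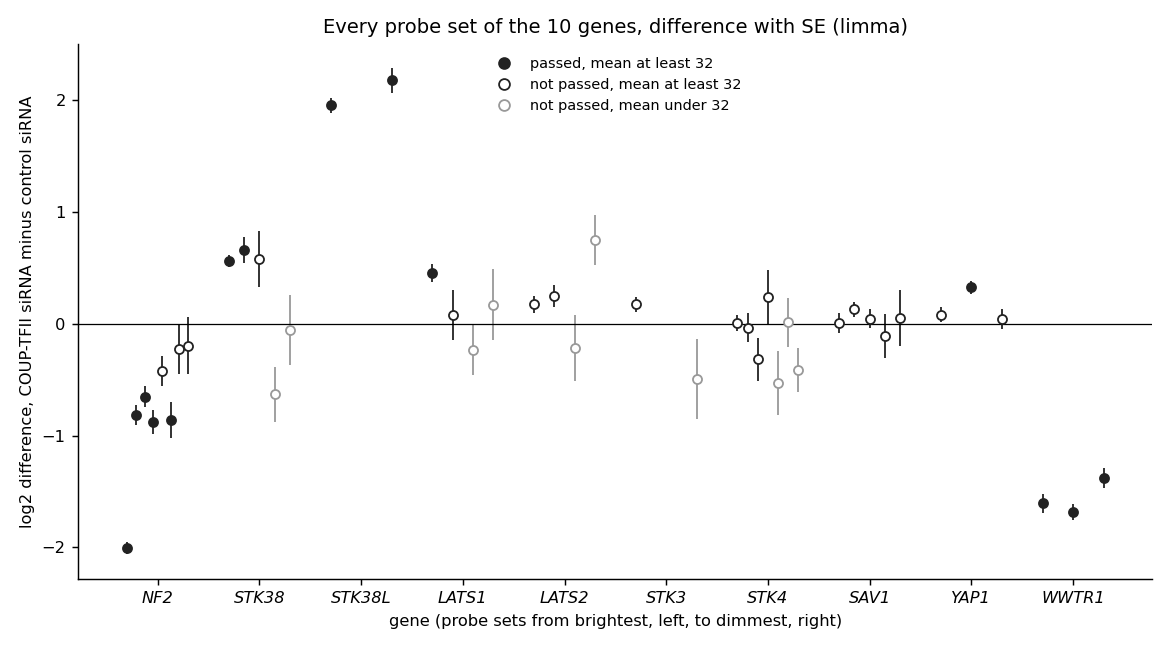
Log2 difference (COUP-TFII siRNA minus control siRNA, vertical axis) of each of the 43 probe sets with its SE, grouped by gene and ordered from brightest to dimmest within a gene. Filled points passed and grey points are dim; the 3 WWTR1 points lie together near −1.5, both STK38L points near 2, and the NF2 points spread from −2.01 to −0.20.

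Of the LATS kinases, which phosphorylate YAP and TAZ directly, LATS1 was higher on 1 of 4 probe sets. Probe set 227772_at read 369.3 and 337.9 in the controls and 473.7 and 509.2 after COUP-TFII siRNA, without overlap, a log2 difference of 0.46 ± 0.08 (SE). In the fit of 1 probe set per gene it passed, but not without control replicate 2 (0.40) or without COUP-TFII siRNA replicate 2 (0.41), and among probe sets it lost its call whichever array was omitted. The other 3 LATS1 probe sets, of means under 41, differed by −0.23 to 0.17, and the average of all 4 by 0.12 ± 0.13. LATS2, itself a known transcriptional target of YAP and TAZ, did not pass. Its brighter probe sets read 622.0 and 700.2 against 768.2 and 727.3 on 227013_at, and 419.0 and 476.5 against 571.7 and 497.1 on 223380_s_at. In both the COUP-TFII siRNA arrays were the higher ones without overlap, by 0.18 ± 0.08 and 0.25 ± 0.10. The dim 223379_s_at, at 3.70 and 1.87 against 21.2 and 10.8, and 230348_at did not pass either.

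No probe set of the upstream kinases or their scaffold passed. STK3, which encodes MST2, read 539.7 and 526.7 in the controls and 622.1 and 587.2 after COUP-TFII siRNA on 204068_at. The COUP-TFII siRNA arrays were the higher ones without overlap, by 0.18 ± 0.07 (SE), and the difference did not pass. Its second probe set was dim and overlapped. STK4, which encodes MST1, read 580.8 and 632.2 against 594.9 and 621.7 on 225364_at, a difference of 0.01 ± 0.08. None of its 7 probe sets passed, and 4 overlapped between groups. The 3 that did not overlap, 211085_s_at, 205411_at and 243981_at, were lower after COUP-TFII siRNA, with group means of 57.4 or less. SAV1, the scaffold that joins MST to LATS, read 1121 and 1048 against 1193 and 994.6 on 234491_s_at. None of its 5 probe sets passed, 4 overlapped, and their differences ran from −0.11 to 0.13. A difference that did not pass here does not show that the transcript was the same in both groups.

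When each array was centred on the median log2 level of its 10 measured housekeeping genes, the median difference over all genes went from 0.01 to 0.31. That level is set by the genes of middle brightness. These were HPRT1 with PGK1 or TFRC in the control arrays and SDHA with PGK1 in the COUP-TFII siRNA arrays. HPRT1 went from a mean of 2184 to 1278 and SDHA from 1477 to 1699. Under this centring NF2, WWTR1 and STK38L kept their direction and their call, at −1.71, −1.31 and 2.25 on the brightest probe sets. LATS2, STK3, STK4, SAV1 and YAP1 then passed as higher, at 0.47, 0.47, 0.30, 0.30 and 0.38, beside that median of 0.31 for all genes. The members called became 17 higher and 8 lower of 43 probe sets. Over all 54613 probe sets the calls went from 3554 higher and 3094 lower to 14239 and 1643. Over all genes they went from 2519 higher and 2039 lower to 7426 and 945. The housekeeping genes themselves then had a median of 0.23, against −0.06 without the centring. The centring thus did not level these genes themselves, and calls gained under it are not read as rises.

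For the genes outside the set, 1 probe set per gene was used, and 23.0% of 19775 genes passed, 12.7% as higher and 10.3% as lower, with a median difference of 0.01. The targets of YAP and TAZ moved in both directions. Among the 20 measured, limma with Benjamini-Hochberg adjustment called 4 higher and 6 lower, and the list median was 0.02. With probe sets averaged 8 were called, 3 higher and 5 lower. DOCK5, counted as lower, was then at −0.12, and CCDC80, counted as higher, at 0.39. Neither then passed (limma adjusted p = 0.629 and 0.125). Of the 8 DOCK5 probe sets, 1 was called in the fit of all probe sets, as higher. AXL, a receptor tyrosine kinase, fell from 2351 and 2160 to 803.9 and 839.7, a log2 difference of −1.44 ± 0.06 (SE; limma adjusted p = 2.26e-06), or −0.95 with its 2 probe sets averaged. FJX1, a secreted glycoprotein gene of the four-jointed family, fell from 1684 and 1706 to 880.6 and 864.3 (limma adjusted p = 8.64e-06). IGFBP3, whose protein binds insulin-like growth factors in serum, rose from 539.5 and 530.7 to 2367 and 2116, and ANKRD1, a nuclear ankyrin repeat protein, from 206.0 and 229.3 to 493.2 and 445.0 (limma adjusted p = 8.28e-07 and 0.000101). CCN1 and CCN2, which encode matricellular proteins and are widely used as YAP readouts, fall outside the naming rule and were chosen with their values known. CCN1 read 7224 and 7499 against 7145 and 7378, which overlap, and CCN2 differed by 0.14 ± 0.06 (limma adjusted p = 0.111). Of the 10 called targets, 6 were called in each fit with 1 array left out. CCDC80, DOCK5, F3 and GADD45A were not, and the count was 7 without control replicate 1, 8 without control replicate 2 and 7 without either COUP-TFII siRNA array. After housekeeping centring 12 were higher and 3 lower.

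**Figure D3:**
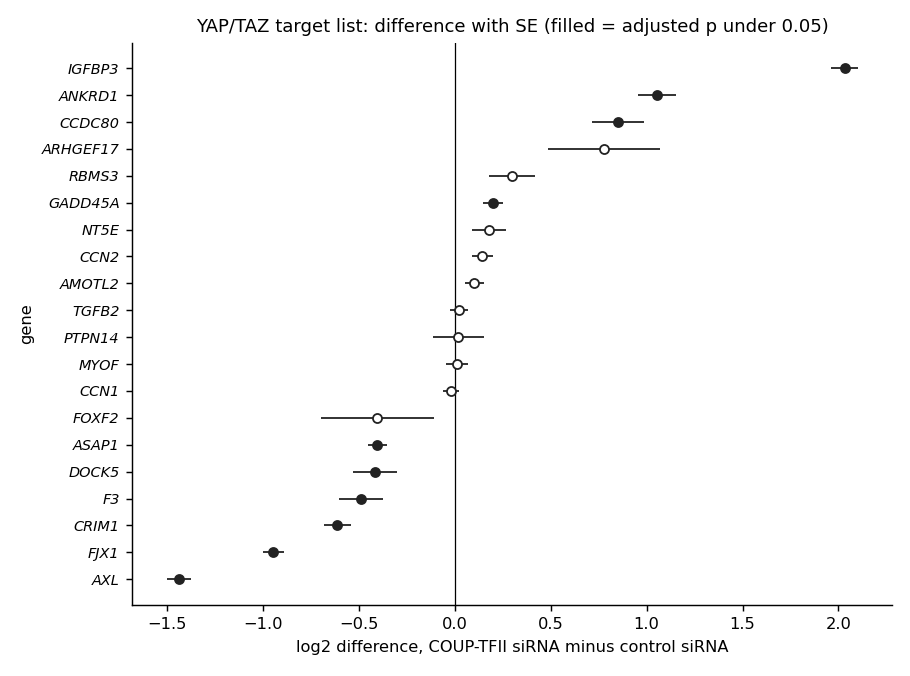
Log2 difference (COUP-TFII siRNA minus control siRNA, horizontal axis) with its SE for the 20 measured genes of the YAP/TAZ target list, in order of size, filled where the limma adjusted p was under 0.05. The list spreads to both sides of 0, from AXL at −1.44 to IGFBP3 at 2.03, with CCN1 and CCN2 near 0.

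Of the 8 TEAD factors and VGLL cofactors 5 rose and none fell, with a median of 0.52. None of the 8 was dim. In the fit with dim genes left out, 3178 of 12768 genes were called higher and 2454 lower. The list was chosen with earlier results of these data known, so its share is not read as a result. VGLL3 rose from 309.5 and 276.1 to 1134 and 1004 (1.81 ± 0.09 SE; limma adjusted p = 3.62e-06), and VGLL1 from 374.9 and 423.2 to 1013 and 932.5. VGLL4, which competes with YAP for TEAD, rose from 812.0 and 759.7 to 1354 and 1327, and TEAD2 from 832.6 and 859.8 to 1327 and 1405. With its 2 probe sets averaged VGLL4 rose by 0.50, against 0.76 on the brightest. TEAD3 rose by 0.36 but lost its call whichever array was omitted. TEAD1 overlapped between groups, at 1059 and 938.9 against 960.8 and 987.5, and TEAD4 differed by −0.32 ± 0.13 without passing (limma adjusted p = 0.111). TEAD1 was at −0.03, and at 0.26 after housekeeping centring, under the shift of all genes.

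The MOB adaptors, of which MOB1A and MOB1B activate LATS and NDR kinases, did not pass. MOB1A, MOB1B and MOB2 differed by 0.09 ± 0.06, −0.06 ± 0.07 and 0.15 ± 0.10 (SE), and MOB1B was at 0.23 after housekeeping centring. Of the 10 MOB and NDR partner genes, 4 rose (FRYL, AAK1, STK25 and STK26, by 0.21 to 0.50) and none fell. With probe sets averaged 1 gene of this list was called. AAK1 was then at −0.07, FRYL at 0.13 and STK26 at 0.20, and none of these passed (limma adjusted p = 0.799, 0.592 and 0.122). The list of ERM relatives held the merlin-related genes EZR, RDX and MSN, whose proteins link membrane proteins to actin, and the adaptors NHERF1 and NHERF2, which bind ERM proteins. In it 3 of 5 rose. RDX rose from 2096 and 2069 to 3044 and 2917, and MSN from 3895 and 3989 to 5093 and 4930. EZR differed by 0.16 ± 0.05 (SE) and did not pass (limma adjusted p = 0.0583). Of the adaptors NHERF1 rose by 0.28, and NHERF2 was dim and overlapped. MSN did not pass with its 2 probe sets averaged (0.17; limma adjusted p = 0.423). Of 16 STRIPAK and RASSF genes, 2 rose and 2 fell. RASSF5, which encodes an MST-binding protein, fell from 310.3 and 320.2 to 129.5 and 112.0, by 1.28 on the log2 scale and by 0.62 with its 2 probe sets averaged. Its relative RASSF2 rose from 186.9 and 193.9 to 413.5 and 420.2. STRN, a STRIPAK scaffold gene, fell by 1.11 on the log2 scale on 1 of 10 probe sets (−0.18 with these averaged), and CTTNBP2NL rose by 0.38. Of 16 genes of LATS inhibition and YAP turnover, 6 rose and 2 fell. WTIP, a LIM protein of the Ajuba family that inhibits LATS, rose from 72.6 and 72.6 to 166.0 and 178.9. BTRC, the ubiquitin ligase subunit that recognises phosphorylated YAP and TAZ, rose from 145.7 and 155.0 to 313.1 and 303.5, on 1 of 5 probe sets, and did not pass with these averaged (0.39; limma adjusted p = 0.123). The kinase gene CSNK1D rose by 0.44, and YWHAH, which encodes a 14-3-3 protein, fell by 0.41. With probe sets averaged these were at 0.27 and −0.35 and did not pass (limma adjusted p = 0.169 and 0.105). Of 16 membrane and junction regulators 3 rose (LLGL1, KIRREL1 and SCRIB, by 0.24 to 0.37) and none fell. With probe sets averaged LLGL1 was at 0.22 and KIRREL1 at 0.06, and neither passed (limma adjusted p = 0.174 and 0.826). Of 8 MAP4 and TAO kinases 1 rose, TAOK3, by 0.34. Over these 8 lists 38 of 99 genes passed, and 17 of the 38 were called in each fit with 1 array left out. Over all features 23.0% of 19775 genes passed, or 5632 of 12768 in the fit with dim genes left out. Few genes of these lists were dim, so their share is not read as a result. Of the 38 called genes, 23 still passed with probe sets averaged. The number was 21 without control replicate 1, 22 without control replicate 2, 19 without COUP-TFII siRNA replicate 1 and 21 without COUP-TFII siRNA replicate 2. None of the MOB and NDR partners, membrane regulators or MAP4 and TAO kinases named here was among the 17, nor were CTTNBP2NL, CSNK1D, YWHAH and NHERF1.

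**Figure D4:**
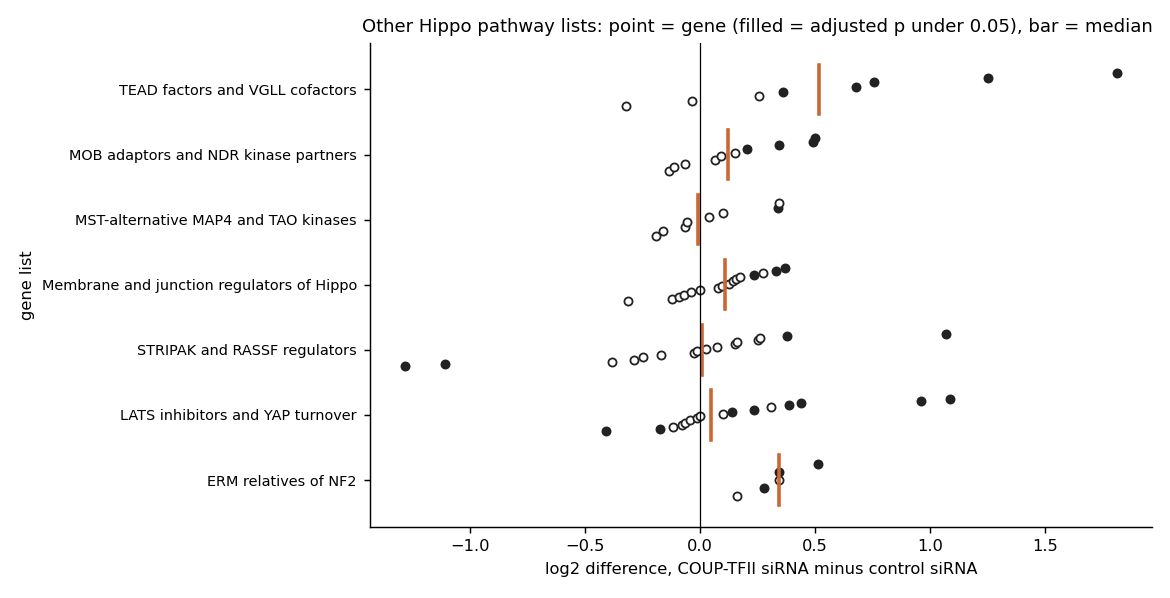
Log2 difference (COUP-TFII siRNA minus control siRNA, horizontal axis) of each gene in 7 Hippo pathway lists (vertical axis), filled where the limma adjusted p was under 0.05, with a bar at the list median. The TEAD and VGLL list has its median at 0.52 and VGLL3 at 1.81, and the STRIPAK and RASSF list holds both the lowest values, RASSF5 and STRN, and RASSF2 at 1.07.

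The genes whose centred log2 profile over the 4 arrays lay closest to that of NF2, among 9886 other genes brighter than the median, were TMEM19, SKA2 and HMGB2, at root mean square distances of 0.04, 0.04 and 0.05. SKA2, a spindle and kinetochore component, read 2326 and 2302 in the controls and 540.6 and 527.8 after COUP-TFII siRNA. The genes closest to STK38L were IGFBP3, CLIC3 and EPPK1, at 0.04, 0.05 and 0.07. EPPK1, which encodes the cytolinker epiplakin, read 121.3 and 108.7 against 467.7 and 435.9. The 4 arrays form 2 groups, so genes with a similar group difference lie close to each other on this measure.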

How the data were processed

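Total RNA of PC3 cells was amplified and labelled with biotin by a 3′ IVT kit, per the labels' protocols, for 1-colour Affymetrix arrays. The deposited values are the authors' linear intensities for 54675 probe sets per array. How they were summarised, background-corrected and normalized is not given in the sources used here. The values carry no detection calls, array medians differed by at most 3.66%, and with 2 arrays a group their number limits the precision. No further scaling was applied.

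Log2(intensity + 16) values were fitted over all 4 arrays without a block by limma 3.58.1 (lmFit, then eBayes with trend) under R 4.3.3, with Benjamini-Hochberg adjustment. One fit held all 54613 probe sets other than the 62 controls. The other held 19775 genes, each by its brightest single-gene probe set, leaving out _x_at probe sets where the gene had another. The platform table named 1 gene for 41091 probe sets, several for 1801 and none for 11721. Symbols were updated through Entrez identifiers in RefSeq (GRCh38.p14), which matched 41037. Probe sets marked _s_at or _a_at can match several transcripts. The fits had 2 residual degrees of freedom. After moderation, which draws on the spread of the other features, these were 8.78 for genes and 7.11 for probe sets. The gene fit was also run on simulated data with independent normal noise, which cannot show its error rate on these arrays. Promoters came from a RefSeq table. Plots used matplotlib 3.10.9.

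The members and gene lists were chosen with earlier results of these data known. Named were all members, all TEAD and MOB genes, up to 4 called, non-overlapping genes of largest difference per list, and the 3 nearest profiles of NF2 and STK38L. The alternatives were a replicate block, other scalings, pseudocounts of 1 and 64, dim features (mean under 32) left out, 1 prior variance, probe set choice and each array left out. The labels do not say that same-numbered arrays of the 2 groups are pairs, so replicate numbers were not taken as pairs. Their deviations from the group means correlated at r = 0.01 over all probe sets, which cannot exclude pairing.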

Additional observations from a re-analysis of the deposited data

How the results depend on the processing

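NF2, WWTR1 and STK38L kept their direction and their call in all 14 alternatives fitted per gene, with log2 differences from −2.04 to −0.76, −1.71 to −1.31 and 1.87 to 2.25. STK38 passed in 13, all but averaged probe sets (0.22), and LATS1 in 10, not with 1 prior variance, averaged probe sets (0.12) or without control replicate 2 or COUP-TFII siRNA replicate 2. Centring on housekeeping genes gave 8371 genes, 15882 probe sets and 25 member probe sets called, against 4558, 6648 and 14. With 1 prior variance for all features these counts were 1568, 527 and 6, and 5 of the YAP/TAZ targets were called against 10. With 1 array left out they ranged from 1824 to 2348 genes, 752 to 2382 probe sets, 6 to 9 member probe sets and 7 to 8 targets. The replicate block, with replicate numbers in the model, gave 5126 genes, 7866 probe sets, 14 member probe sets and 10 targets. The sign turned in these cases. STK3 (0.18) was at −0.16 with its 2 probe sets averaged, of which the dim 211078_s_at was at −0.49. STK4 was at −0.0203 with quantile normalization, −0.147 with averaged probe sets and −0.0546 to 0.0646 with 1 array left out. SAV1 was at −0.00623 with quantile normalization and −0.122 to 0.137 with 1 array left out. AAK1, called at 0.49, was at −0.0727 with averaged probe sets and lost its call. MOB1B and TEAD1 were at 0.23 and 0.26 and passed after housekeeping centring, and ranged from −0.143 to 0.0189 and −0.119 to 0.0522 with 1 array left out. Of 462 alternative values for named list genes, 74 lost their call, 5 gained one and 5 changed sign. Beyond what fewer arrays, a single prior or the housekeeping reference level bring, the cause was not tested. Dim probe sets limit what can be said of LATS1, LATS2, STK3, STK4 and STK38, and 10 of the 43 were dim. The set was picked for NF2 and STK38L in this same contrast, so their calls in refits of these arrays are not independent support.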

Other observations

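Of 5 epithelial markers 2 rose and 2 fell, all by small steps. KRT8 and KRT18, which encode keratins, rose by 0.16 and 0.13 (limma adjusted p = 0.03 and 0.0495), and KRT19 overlapped between groups. EPCAM, an epithelial adhesion molecule, read 6171 and 6127 in the control arrays and 5275 and 5140 in the COUP-TFII siRNA arrays, a log2 difference of −0.24 ± 0.04 (SE; limma adjusted p = 0.00374). CDH1, which encodes E-cadherin, fell by 0.30 (limma adjusted p = 0.0173). With 1 array omitted, the highest adjusted p by limma was 0.26 for KRT8, 0.355 for KRT18, 0.0935 for EPCAM and 0.218 for CDH1. After housekeeping centring the median of these 5 markers was 0.27, close to the shift of all genes. TMPRSS2, a luminal prostate protease, was the one measured luminal marker that was not dim, and it rose from 132.1 and 156.5 to 391.2 and 392.0 (limma adjusted p = 4.75e-05), by 1.35 on the log2 scale and by 0.69 with its 4 probe sets averaged. COL1A1, a collagen gene from the fibroblast list, rose from 598.6 and 540.3 to 961.6 and 949.6, by 0.73 on the log2 scale. With its 5 probe sets averaged it was at 0.34 and did not pass (limma adjusted p = 0.0546). PDGFRB was dim, and DCN, LUM and COL1A2 did not pass.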
